A study of Mus musculus with 5 samples.

Results

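The genes described here are those of mitochondrial fatty acid oxidation and the metabolic targets of the PPAR receptors in the mouse heart. The list held 33 symbols, and 30 of them had a probe that carries no other gene symbol, out of 22180 such symbols on the array. Where a gene had several probes, the one with the highest mean over the 5 arrays was taken. All 30 passed the level filter and lie among the 15294 genes tested. Cpt1b, Acsl1 and Ucp2 had no probe of their own and were not analysed here.

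Hearts came from wild-type C57Bl6J mice at zeitgeber time 12 (hours after lights on). They were isolated, perfused on a Langendorff apparatus (buffer supplied through the aorta outside the body) for 20 min, left without flow for 20 min and reperfused for 20 min. The antagonist group (n = 3 hearts) had received an antagonist of REV-ERB alpha, the clock repressor encoded by Nr1d1, into the peritoneum 4 h and 1 h before the perfusion, at 10 µM as the labels state it. The sham group (n = 2 hearts) received no antagonist before an identical perfusion. The labels give no name for the compound and no vehicle for sham, and no group without ischemia was analysed here. Each heart is 1 array of heart RNA not separated by cell type, so fewer cells of a type and less RNA per cell cannot be told apart.

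The adult heart draws most of its ATP from fatty acids. Fatty acids enter the muscle cell through CD36, are carried by the binding protein FABP3, activated to acyl-CoA and moved into mitochondria by the carnitine palmitoyltransferases. There the acyl-CoA dehydrogenases and the trifunctional protein shorten them, and the electron transfer flavoprotein passes the electrons on to the respiratory chain. PPAR alpha and PPAR delta, nuclear receptors that bind fatty acids, switch on these enzymes together with the coactivators PGC-1 alpha and beta and the receptor ERR alpha. The same receptors also induce other metabolic genes, some of which restrain glucose use or fuel supply. Among these are the pyruvate dehydrogenase kinase gene Pdk4, the lipoprotein lipase inhibitor gene Angptl4, the uncoupling protein gene Ucp3 and the acyl-CoA thioesterase genes Acot1 and Acot2. They are all called brakes below, together with Pdk2 and Pdk3, which are less known as PPAR targets. The name is a label for the group, and not every gene in it restrains fuel use.

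The arrays were those of heart muscle: the thin-filament gene Tnnt2 lay between 12.61 and 12.65 and the calcium pump gene Atp2a2 between 12.46 and 12.68 (log2 expression). The mean of 15 cardiomyocyte genes lay between 11.45 and 11.57, with its lowest value on sham replicate 1. Antagonist replicate 2 carried more signal of fat and atrium: the mean of 10 adipocyte genes was 6.64 there and 4.86 to 5.20 on the other arrays, and the mean of 11 atrial genes was 8.38 there and 6.65 to 7.00 elsewhere. The adipocyte genes did not all share this. Of the brightest, Car3 was 9.899 on antagonist replicate 2 and 5.173 to 6.855 elsewhere, but Fabp4 was 10.89 there and 10.78 to 10.9 elsewhere. Lipe was 5.93 on every antagonist array and 5.41 and 5.94 in sham. Adipoq, the adiponectin gene of fat cells, was 4.83 on antagonist replicate 2 and 2.99 to 3.05 elsewhere, with a mean below the level filter. Of the adipocyte genes 3 (Ucp1, Fabp4 and Lipe) are also on the list of other pathway genes below. On antagonist replicate 2 the mean of 10 mesothelial genes was 4.87, against 4.13 to 4.18. Skeletal muscle genes (8, means of 3.98 to 4.17), endothelial genes (10, 7.75 to 7.86), fibroblast genes (10, 7.92 to 8.31) and macrophage genes (12, 6.92 to 7.16) spanned less. Slc4a1, the one erythroid marker with a probe, lay between 4.28 and 4.38. The part of these differences in the results below was not tested, beyond the values given with single arrays left out.

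Setting antagonist against sham hearts asks whether genes of fat use differ when REV-ERB alpha is blocked before ischemia. The 15 measured enzymes of fatty acid oxidation went both ways, 7 higher and 8 lower in antagonist hearts, with log2 differences from -0.06 (Hadh) to 0.19 (Ech1) and a median of -0.0056. That median was -0.04 without sham replicate 1 and 0.04 without sham replicate 2. The PPAR-inducible kinase gene Pdk4 was 1.30-fold higher in antagonist hearts, with the gene of the fatty acid transporter Cd36, the malonyl-CoA decarboxylase gene Mlycd and the receptor gene Ppara also above both sham hearts. The thioesterase gene Acot2 was below both. None of these passed the test: 0 of the 30 genes had a limma adjusted p under 0.05 (smallest 0.64), as 0% of all 15294 genes did. At an unadjusted limma p under 0.05 there were 2 of the 30 (6.67%), against 4.6% of all genes; both were higher, against 2.23% of all genes, and 0 lower, against 2.37%. The groups did not overlap for 5 of 30 (16.7%), against 12.5% of all genes, with 4 higher (6.19% of all genes) and 1 lower (6.33% of all genes). Without antagonist replicate 2 this was 7 of 30 (23.3%, against 17.6%). Both shares are near those of the array as a whole. Exactly equal values on some arrays were found for 13 of the 30 genes, a smaller share than the 73.9% of all genes tested.

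In antagonist hearts 18 of the 30 genes were higher and 12 lower, and the median difference was 0.03. Over all genes tested 7294 were higher, 7078 lower and 922 equal, with a median of 0. The differences ranged from -0.39 for Ucp3 to 0.40 for Angptl4, each of them with overlapping groups. The gap between the sham hearts was larger than the difference between the groups for 23 of the 30 genes (76.7%), against 58.4% of all genes. The exceptions were Hadha, Hadhb, Hadh, Etfdh, Cd36, Pdk4 and Angptl4.

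**Figure D1:**
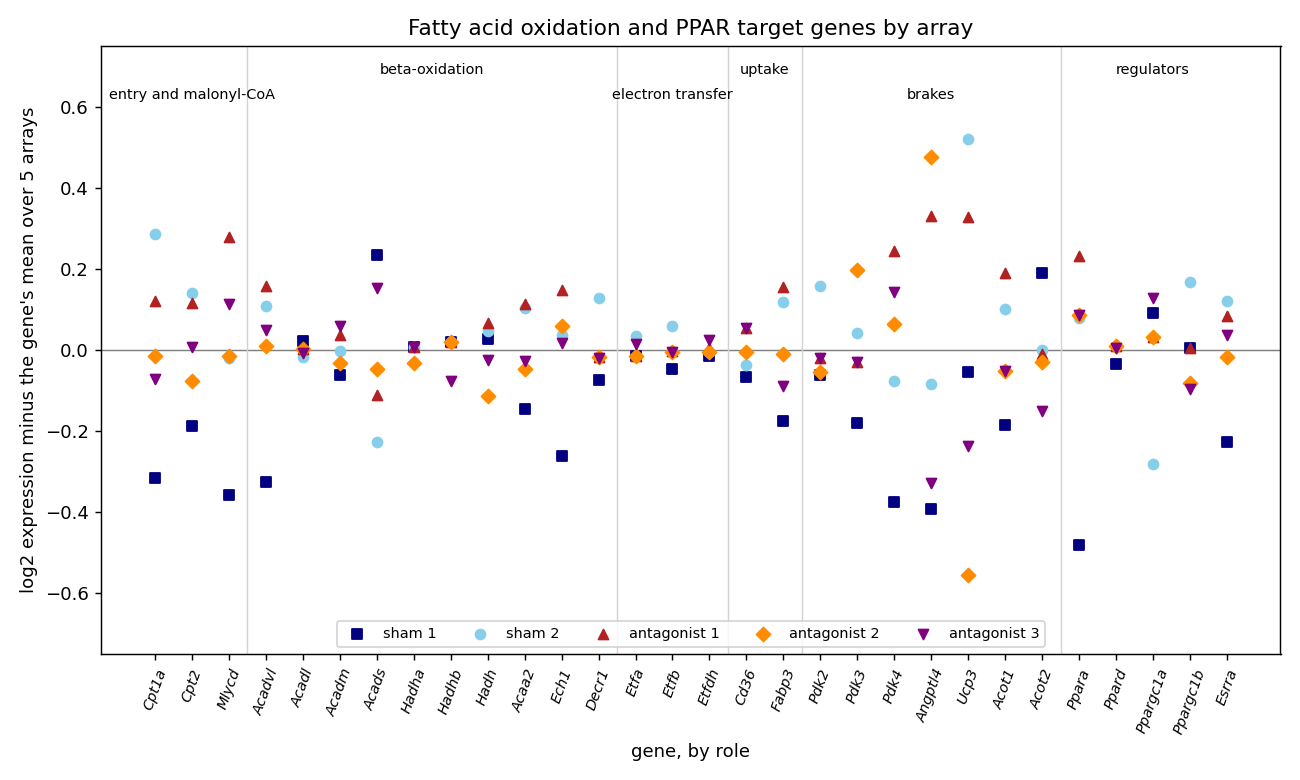
Log2 expression of each of the 30 genes on each of the 5 arrays, as the deviation from that gene's mean over the arrays, with the genes ordered by role along the horizontal axis. Sham replicate 1 (dark blue squares) was the lowest array for 20 of the 30 genes, and the brakes Angptl4 and Ucp3 spread most widely.

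Sham replicate 1 lay low across these genes. It had the lowest value of 20 of the 30 genes (66.7%), where it was lowest for 25.9% of all genes tested. Sham replicate 2 had the highest value of 9 of the 30 (30%, against 18.5% of all genes) and the lowest of 3 (10%, against 15.5%). It exceeded sham replicate 1 in 24 of the 30 (80%, against 42.7% of all genes) and was below it in 4. Over all genes 6523 were higher on sham replicate 2 and 5640 on sham replicate 1, and the rest were equal. Equal values on some arrays, which lower such shares, were found for 73.9% of all genes and for 13 of the 30. The median gap between the pair was 0.24 on the log2 scale, against 0.11 over all genes. Antagonist replicate 1 was highest for 10 of the 30 (33.3%, against 15.6% of all genes) and lowest for 0 (against 12.6%). Every antagonist heart was above sham replicate 1 in 20 of the 30 genes (66.7%, against 28.1% of all genes), but above sham replicate 2 in only 7 (23.3%, against 19.6%) and below it in 10 (33.3%, against 22.5%). Set against sham replicate 1 alone the antagonist hearts did not overlap with it for 23 of the 30 (76.7%, against 52.7%), and set against sham replicate 2 alone for 17 (56.7%, against 42.1%).

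**Figure D2:**
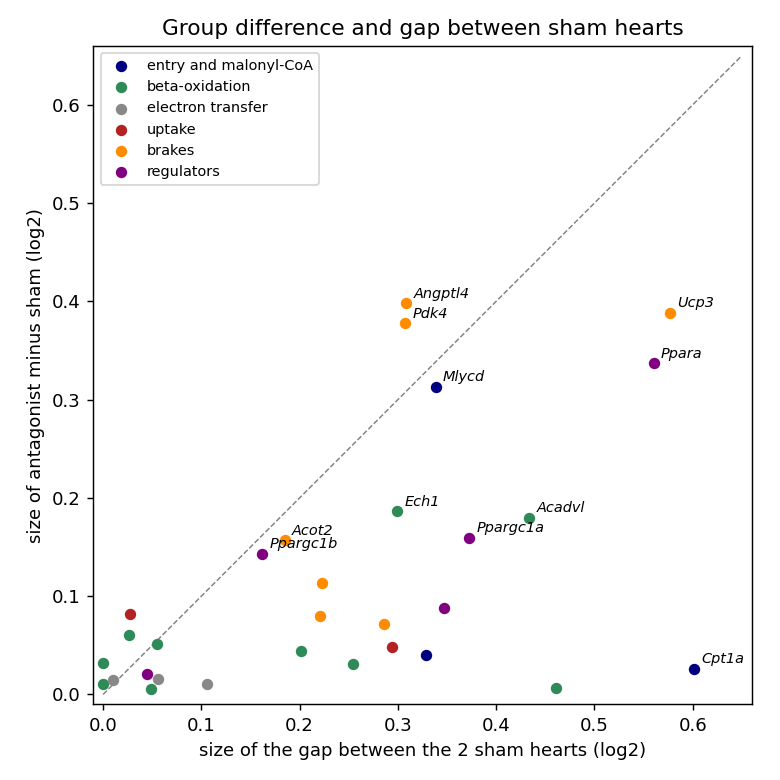
Size of the antagonist minus sham difference (vertical axis, log2) against the size of the gap between the sham hearts (horizontal axis, log2) for each of the 30 genes, coloured by role; the dashed line marks equal sizes. Of the 30 genes 23 lie below the line, Cpt1a (gap 0.60, difference 0.03) farthest to the right, while Pdk4 and Angptl4 lie above it.

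Among genes of uptake, Cd36 (Entrez Gene 12491) had 11.50 and 11.53 in the sham hearts and 11.62, 11.56 and 11.62 in antagonist replicates 1, 2 and 3. All antagonist values were above both sham values, by at least 0.03. The means were 11.60 ± 0.03 (SD, n = 3) and 11.52 ± 0.02 (SD, n = 2), a log2 difference of 0.08 ± 0.03 (SE) or 1.06-fold, with an unadjusted limma p of 0.041 and an adjusted p of 0.64. The exact two-sided permutation p over the 10 divisions of the arrays was 0.20, where 0.10 is the smallest that the design allows. Without any single array the difference stayed between 0.07 and 0.10. With quantile normalization repeated it was 0.05 ± 0.04 (SE). With the test restricted to genes with 5 different values it was 0.08 ± 0.09 (SE). Fabp3, which encodes the fatty acid binding protein of heart muscle, had 7.18 and 7.48 in sham and 7.51, 7.35 and 7.27 with the antagonist. These groups overlapped (difference 0.05 ± 0.13, SE), and a second, dimmer probe of Fabp3 differed by -0.15.

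Pdk4 (Entrez Gene 27273) encodes the kinase that shuts the pyruvate dehydrogenase complex and so spares glucose when fat is burned. It had 10.29 and 10.59 in the sham hearts and 10.91, 10.73 and 10.81 in the antagonist hearts. All antagonist hearts lay above both sham hearts, by at least 0.14, the widest such margin of the 30 genes. The means were 10.82 ± 0.09 (SD, n = 3) and 10.44 ± 0.22 (SD, n = 2), a log2 difference of 0.38 ± 0.12 (SE). The unadjusted limma p was 0.038 and the adjusted p 0.64, with an exact two-sided permutation p of 0.10. The difference was 0.22 without sham replicate 1 and 0.53 without sham replicate 2. For the other kinase genes the groups overlapped. Pdk2, the kinase of most tissues, had 9.44 and 9.66 in sham and 9.48, 9.45 and 9.48 with the antagonist, a difference of -0.08 ± 0.08 (SE) that was 0.03 without sham replicate 2. Pdk3, a dim probe at 4.14 to 4.51, differed by 0.11 ± 0.12 (SE), or by 0.0023 without sham replicate 1, and was highest on antagonist replicate 2. No test of the difference between the kinases was made.

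The other brakes varied within the groups. Angptl4, whose product inhibits lipoprotein lipase, had 4.63 and 4.94 in sham and 5.35, 5.50 and 4.69 with the antagonist. Its probe was dim, with a mean of 5.02 against a median level of 5.56 over all genes tested. Antagonist replicates 1 and 2 were above both sham hearts and antagonist replicate 3 lay between them. The difference of 0.40 ± 0.31 (SE) was 0.24 without antagonist replicate 2, the array with the high adipocyte genes, where Angptl4 was highest, and 0.64 without antagonist replicate 3. Ucp3, an uncoupling protein of muscle mitochondria, had 6.20 and 6.77 in sham and 6.58, 5.70 and 6.01 with the antagonist. Antagonist replicates 2 and 3 were below both sham hearts and antagonist replicate 1 lay between them, for a difference of -0.39 ± 0.36 (SE). It was -0.10 without sham replicate 2 and -0.68 without sham replicate 1.

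The acyl-CoA thioesterases release free fatty acids from acyl-CoA, Acot1 in the cytosol and Acot2 in mitochondria. Acot2 (Entrez Gene 171210) had 11.34 and 11.15 in sham and 11.14, 11.12 and 11.00 with the antagonist, a difference of -0.16 ± 0.08 (SE). It was -0.06 without sham replicate 1 and -0.25 without sham replicate 2. The groups did not overlap, but antagonist replicate 1 and sham replicate 2 were only 0.0097 apart (unadjusted limma p 0.13, adjusted p 0.64, exact two-sided permutation p 0.10). Acot1 had 5.99 and 6.28 in sham and 6.37, 6.13 and 6.13 with the antagonist, which overlap (difference 0.07 ± 0.13, SE). These paralogs are close in sequence, so their probes may share signal.

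**Figure D3:**
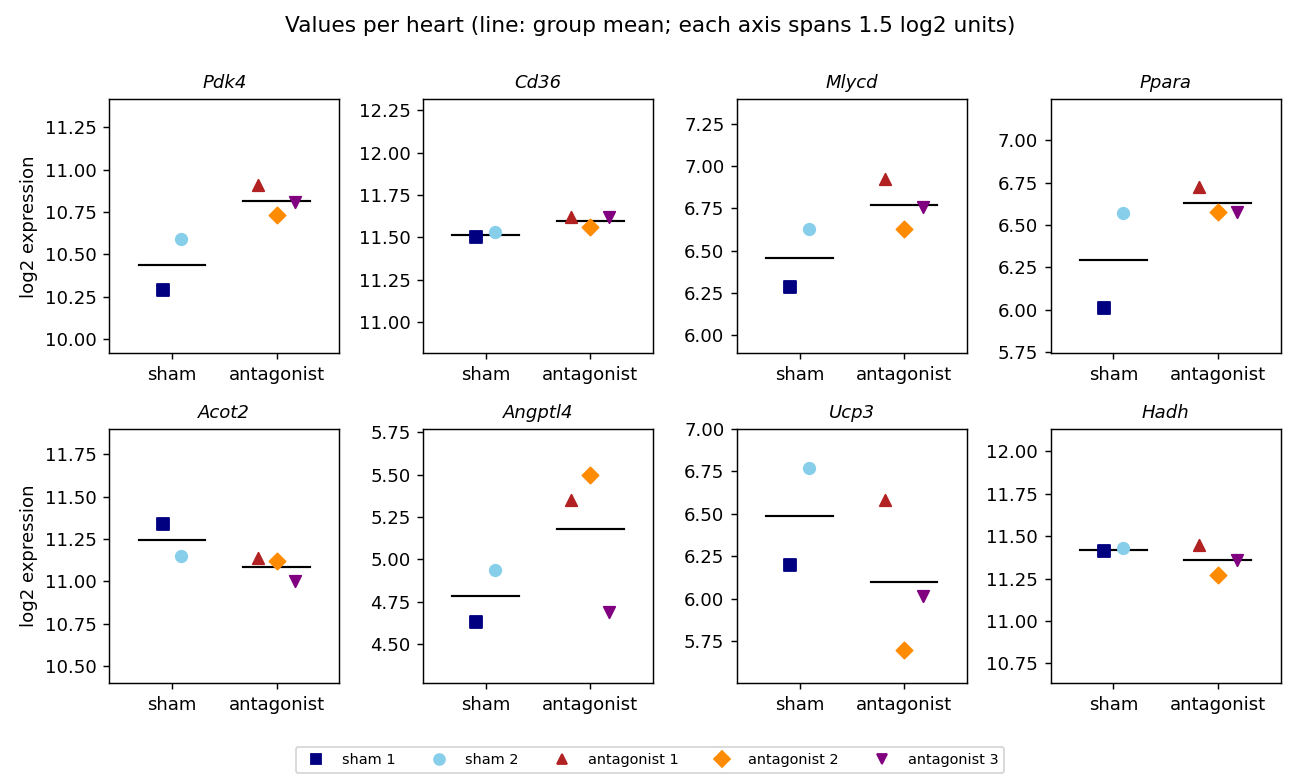
Log2 expression per heart of 8 genes in sham and antagonist hearts, with a line at each group mean and the same 1.5-unit span on each vertical axis. Pdk4, Cd36, Mlycd and Ppara lie higher in every antagonist heart than in either sham heart and Acot2 lower, while Angptl4, Ucp3 and Hadh overlap; only for Pdk4 among these is the gap above 0.1.

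Promoter sequence is shown for the pair of genes with the smallest p, Pdk4 and Cd36. It is also shown for Ucp3, the gene of the brakes with a PPAR-type match, and for Acadvl, the enzyme gene with a REV-ERB-type match. PPAR receptors bind with RXR to a direct repeat of the half-site AGGTCA with 1 base between, AGGTCANAGGTCA. REV-ERB alpha binds the half-site with an A/T-rich flank, searched here as TAGGTCA. This string holds only 1 base of the flank, the T, and in Acadvl the bases just before that T are ccc. The sequences are the 250 bases before the RefSeq start (GRCm38.p6), read 5′ to 3′ along the gene. Capitals mark the direct repeat with at most 2 mismatches in Cd36 and Ucp3 and the exact TAGGTCA in Acadvl, on either strand. The Pdk4 window holds neither.
Pdk4 (chr6:5496279-5496528, - strand): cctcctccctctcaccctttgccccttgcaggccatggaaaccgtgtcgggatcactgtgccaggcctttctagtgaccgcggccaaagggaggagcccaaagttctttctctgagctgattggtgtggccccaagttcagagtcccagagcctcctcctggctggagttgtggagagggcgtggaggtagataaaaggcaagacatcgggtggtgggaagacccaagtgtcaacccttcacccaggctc
Cd36 (chr5:17835897-17836146, - strand): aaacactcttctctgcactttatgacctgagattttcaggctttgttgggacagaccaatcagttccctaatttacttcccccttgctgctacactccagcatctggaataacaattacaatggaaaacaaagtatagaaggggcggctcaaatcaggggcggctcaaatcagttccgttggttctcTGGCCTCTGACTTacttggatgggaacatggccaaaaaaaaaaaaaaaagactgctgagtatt
Ucp3 (chr7:100472741-100472990, + strand): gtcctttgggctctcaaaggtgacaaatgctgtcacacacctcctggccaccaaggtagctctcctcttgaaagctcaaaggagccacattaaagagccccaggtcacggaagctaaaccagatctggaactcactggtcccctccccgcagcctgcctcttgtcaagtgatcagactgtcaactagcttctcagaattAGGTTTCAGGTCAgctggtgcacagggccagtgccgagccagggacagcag
Acadvl (chr11:70015429-70015678, - strand): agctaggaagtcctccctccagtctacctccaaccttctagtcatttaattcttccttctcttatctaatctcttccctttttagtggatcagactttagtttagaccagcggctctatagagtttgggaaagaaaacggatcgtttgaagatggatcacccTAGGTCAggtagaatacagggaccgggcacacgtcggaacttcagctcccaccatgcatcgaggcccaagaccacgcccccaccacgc

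The windows searched ran 50 bases further into the gene and were found for 28 of the 33 listed genes, with 30 start sites. On both strands, the direct repeat with at most 2 mismatches was in 3 of the 30 windows (10%), those of Cd36, Ucp3 and Etfa, against 3.86% of all 32851 promoter windows. Without mismatches it was in 0 of them and in 0.0396% of all windows. TAGGTCA was in 1 of 30 (3.33%, against 2.61%), and the half-site AGGTCA, which TAGGTCA and the exact direct repeat contain, in 5 of 30 (16.7%, against 16.3%), namely Acadm, Acadvl, Cd36, Cpt1a and Ucp3. TCAAGGTCA, an element bound by ERR alpha that also contains the half-site, was in 0 of the 30 and 0.423% of all windows. Each of the 3 matches to the direct repeat carried 2 mismatches. Of the genes with such a match, Cd36 differed by 0.08, Ucp3 by -0.39 and Etfa by -0.02. A match is a string in this window, and enhancers farther away were not searched.

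Entry into mitochondria is set by the carnitine palmitoyltransferases and by malonyl-CoA, which inhibits the outer-membrane transferase. Mlycd (Entrez Gene 56690) encodes the decarboxylase that removes malonyl-CoA. It had 6.29 and 6.63 in sham and 6.92, 6.63 and 6.76 with the antagonist, so that antagonist replicate 2 was just 0.0027 above sham replicate 2. The difference was 0.31 ± 0.15 (SE), 1.24-fold, with an unadjusted limma p of 0.11, an adjusted p of 0.64 and an exact two-sided permutation p of 0.20. It was 0.14 without sham replicate 1 and 0.48 without sham replicate 2. Cpt1b, also a gene of the outer-membrane transferase, had no probe of its own, so this step is covered here by Cpt1a only. Cpt1a had 7.26 and 7.86 in sham and 7.69, 7.56 and 7.50 with the antagonist. Every antagonist heart lay between the sham hearts, and the difference of 0.03 ± 0.21 (SE) was -0.27 without sham replicate 1 and 0.33 without sham replicate 2. Cpt2, the inner-membrane transferase, was alike in this, with antagonist values of 9.73 to 9.92 between sham values of 9.61 and 9.94.

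The acyl-CoA dehydrogenases take the first step of each cycle, for chains of different lengths. Acadm, for medium chains, had 11.92 and 11.98 in sham and 12.02, 11.95 and 12.04 with the antagonist, a difference of 0.05 ± 0.04 (SE) that was 0.02 without sham replicate 1. Acadl, for long chains, varied least of these, with 11.54 and 11.50 in sham and 11.51 to 11.52 with the antagonist (difference -0.0056 ± 0.02, SE). Acadvl, for very long chains, had 9.87 and 10.30 in sham and 10.35, 10.20 and 10.24 with the antagonist, a difference of 0.18 ± 0.16 (SE) that was -0.04 without sham replicate 1. Acads, for short chains, ran the other way between the sham hearts, 9.08 and 8.62, around antagonist values of 8.73, 8.80 and 9.00 (difference -0.0060 ± 0.18, SE). For all 4 dehydrogenase genes the groups overlapped.

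For the genes of the later steps the groups also overlapped. Hadha, the trifunctional protein's alpha subunit gene, had 11.60 on antagonist replicate 2 and 11.64 on the other 4 arrays. The Hadhb probe for the beta subunit was dim, at 4.74 on antagonist replicate 3 and 4.83 on the rest. Hadh, the dehydrogenase of shorter chains, had 11.41 and 11.43 in sham and 11.45, 11.27 and 11.36 with the antagonist, a difference of -0.06 ± 0.06 (SE). It was -0.01 without antagonist replicate 2, the array with the fat and atrial signal, and -0.11 without antagonist replicate 1. Acaa2, the thiolase, differed by 0.03 ± 0.10 (SE). Of the auxiliary enzymes for unsaturated fatty acids, Ech1 had 11.30 and 11.60 in sham and 11.71, 11.62 and 11.58 with the antagonist, a difference of 0.19 ± 0.11 (SE) that was 0.04 without sham replicate 1. Decr1 had 8.72 and 8.92 in sham around 8.78 on each antagonist array.

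The electron transfer genes spanned at most 0.11 over the arrays. Etfa lay between 10.79 and 10.84, Etfb between 9.80 and 9.90 and Etfdh, the gene of the oxidoreductase that hands the electrons to ubiquinone, between 11.48 and 11.52. Their differences were -0.02, -0.01 and 0.01. With 1 sham heart left out, Decr1 and Etfb passed in both directions: without sham replicate 1 they differed by -0.14 and -0.06 (limma adjusted p 0.0052 and 0.016), and without sham replicate 2 by 0.06 and 0.04 (0.016 and 0.026). These calls set 1 sham heart against antagonist values that spanned only 0.0024 for Decr1 and 0.0022 for Etfb, and 8.62% and 13.5% of all genes passed in the same settings.

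Of the regulators, Ppara (Entrez Gene 19013) had 6.01 and 6.57 in sham and 6.73, 6.58 and 6.58 with the antagonist. The antagonist hearts were above both sham hearts, but sham replicate 2 lay only 0.0081 below the lowest of them. The difference of 0.34 ± 0.20 (SE), 1.26-fold, was 0.06 without sham replicate 1 and 0.62 without sham replicate 2 (unadjusted limma p 0.17, adjusted p 0.64, exact two-sided permutation p 0.10). Ppard lay between 6.65 and 6.69 on every array, a difference of 0.02 that passed only without sham replicate 2 (0.04, limma adjusted p 0.037). Ppargc1a, which encodes PGC-1 alpha, had 9.95 and 9.58 in sham and 9.89, 9.89 and 9.98 with the antagonist (0.16 ± 0.13, SE). It was -0.03 without sham replicate 2. Ppargc1b, for PGC-1 beta, had 6.76 and 6.92 in sham and 6.76, 6.67 and 6.66 with the antagonist (-0.14 ± 0.07, SE). It was -0.06 without sham replicate 2 and -0.22 without sham replicate 1. Esrra differed by 0.09 ± 0.12 (SE), or by -0.09 without sham replicate 1. Nr1d1 itself had 7.60 and 7.77 in sham and 7.71, 7.44 and 7.05 with the antagonist.

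**Figure D4:**
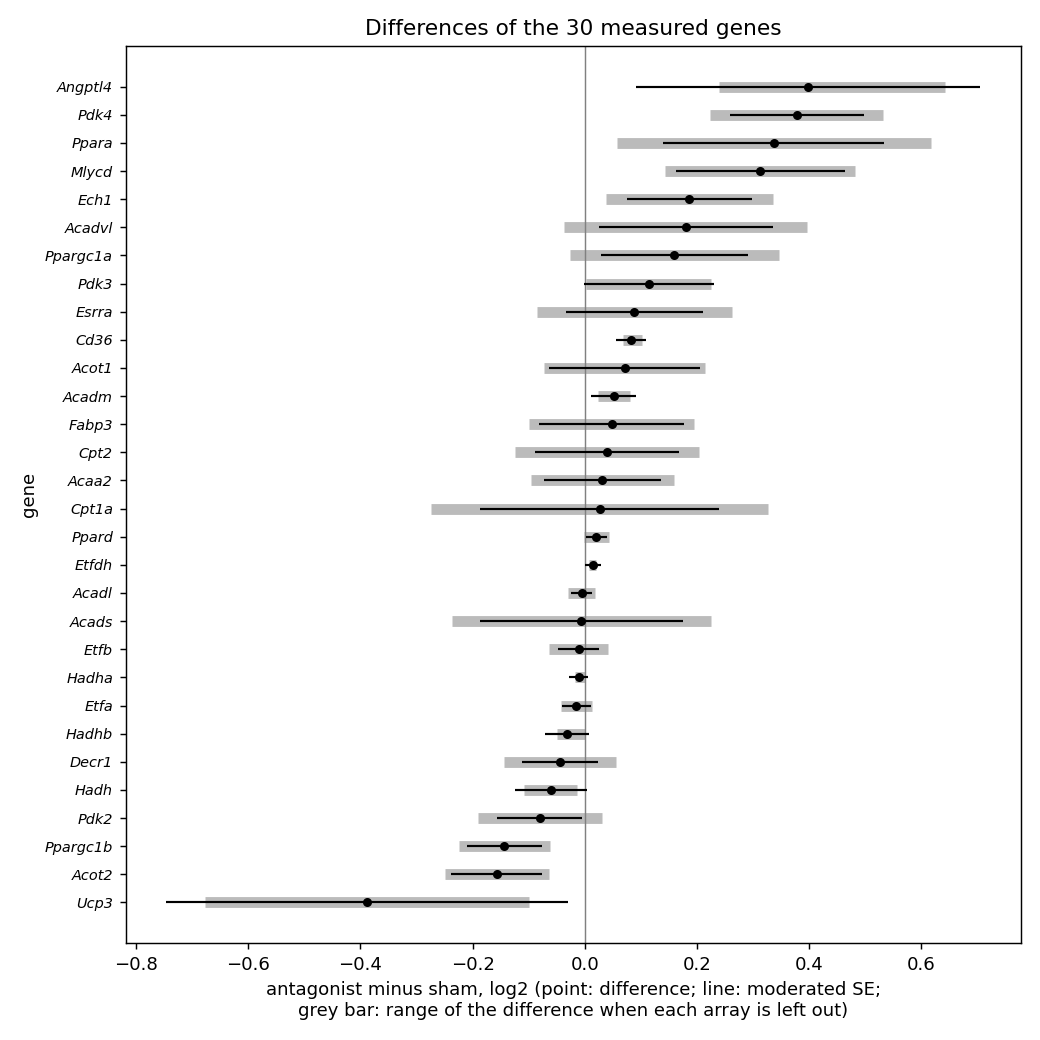
Antagonist minus sham on the log2 scale for the 30 genes (points), with limma's moderated SE (lines) and the range of the difference when each of the 5 arrays is left out in turn (grey bars), ordered by size. The grey bar stays on 1 side of 0 for 13 of the 30 genes, among them Pdk4, Mlycd, Ppara, Cd36 and Angptl4 above it and Acot2, Ucp3 and Ppargc1b below it.

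The brakes and uptake genes were set against the oxidation enzymes as groups. Of 9 measured uptake and brake genes 6 were higher and 3 lower, with a median log2 difference of 0.07, and of 15 measured oxidation enzymes (Mlycd not counted) 7 were higher and 8 lower, with a median of -0.0056. The medians differed by 0.08. On single arrays, the median deviation of the uptake and brake genes minus that of the enzymes was -0.13 and 0.0055 in sham and 0.14, 0.0070 and -0.06 with the antagonist. The groups overlapped: antagonist replicate 3 lay between the sham hearts, and sham replicate 1 and antagonist replicate 1 formed the ends. Without sham replicate 1 the difference of the medians turned to -0.03, and without antagonist replicate 1 it was 0.00045. With the other arrays left out in turn it stayed between 0.05 and 0.15. No test was made. The single-array values had an SD of 0.10 within groups, which is not an SE of the difference of the medians (0.08).

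**Figure D5:**
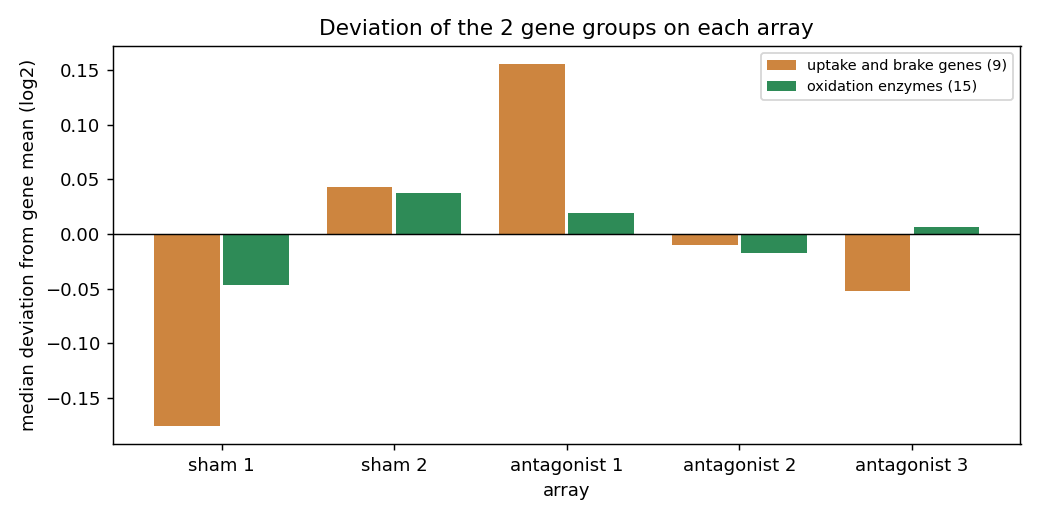
Median deviation from the gene's own mean (log2) of the 9 uptake and brake genes and the 15 oxidation enzymes on each array. The uptake and brake genes are at -0.18 on sham replicate 1 and 0.16 on antagonist replicate 1, and both groups of genes are near 0 on the other arrays.

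Other genes of the pathway, from a list of 77 of which 68 were tested, also held no call. There were 43 higher, 22 lower and 3 equal, with a median log2 difference of 0.04. Over all genes tested these were 7294, 7078 and 922, with a median of 0. Sham replicate 1 had the lowest value of 37 of the 68 genes, where it was lowest for 25.9% of all genes tested. At an adjusted p under 0.05 with limma 0 passed, and at an unadjusted p under 0.05 also 0, against 4.6% of all genes. The groups did not overlap for 6 of 68 (8.82%, against 12.5%). Txnip, whose product curbs glucose uptake, had 11.26 in both sham hearts and 11.54, 11.40 and 11.36 with the antagonist (0.18 ± 0.06, SE). Klf15, a glucocorticoid-inducible regulator of cardiac lipid use, had 6.28 and 6.49 in sham and 6.56, 6.57 and 6.90 with the antagonist (0.29 ± 0.15, SE), and Lpl, the lipoprotein lipase gene, differed by 0.08 ± 0.04 (SE). Pdp1, the phosphatase that opposes the PDK enzymes, had 7.33 and 7.47 in sham and 7.24, 7.28 and 7.21 with the antagonist (-0.15 ± 0.05, SE), below both sham hearts. Hilpda, a lipid droplet protein gene, differed by -0.03 ± 0.01 (SE). The adjusted limma p was 0.64 for each of these 5 genes. The brown fat gene Ucp1, also on this list, lay at 6.50 on antagonist replicate 2 and at most 3.47 elsewhere.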

How the data were processed

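RNA of 5 hearts was measured on 1-colour Affymetrix whole-transcript arrays, from 300 ng of total RNA per the labels' protocols. The deposited values are log2 expression made with RMA, per the submitters' processing notes, a method that normalizes quantiles and summarises probes by median polish, which can leave equal values on several arrays. The RMA version, the build and the library of probe sets were not given in the sources used here.

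Of 41345 probes 23521 had 1 gene symbol in the platform annotation, 1814 had several and 16010 were not listed. Of the 23521, 23328 matched a RefSeq gene (GRCm38.p6) by Entrez identifier. The level filter kept genes whose mean reached the 40th percentile over probes (3.42). Groups were compared by limma 3.58.1 (R 4.3.3), two-sided and without covariates, with Benjamini-Hochberg adjustment over 15294 genes at 0.05; the script was tested on simulated data. The labels call the arrays biological replicates, and their number limits the precision. Differences are antagonist minus sham, with the moderated SE; single genes also had an exact permutation test (10 divisions). Alternatives covered the filter, scaling, probe choice, variance model, replicate block and each array left out. Members and gene lists were chosen with earlier results of these data known. All members are named, and of the other pathway genes up to 3 per direction with the smallest p among those whose groups do not overlap. The 8 genes plotted per heart and the printed promoters were chosen after their values were seen.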

Additional observations from a re-analysis of the deposited data

How the results depend on the processing

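With no level filter, a filter at the 60th percentile, quantile normalization repeated, centring on the array median, the mean of all probes, a trend or robust eBayes, array weights, the replicate block or any antagonist array left out, limma called 0 genes and 0 of the 30 members. At an unadjusted p under 0.05 these settings gave 318 to 860 genes. Restricting the test to the 3991 genes with 5 different values, chosen after seeing the data, also gave 0 (412 unadjusted). With single arrays left out the calls ranged from 0 to 2058 genes (1319 without sham replicate 1, 2058 without sham replicate 2) and from 0 to 3 members (2 without sham replicate 1, 3 without sham replicate 2: Decr1, Etfb and Ppard). The median difference then ranged from -0.0645 to 0.195 for the uptake and brake genes, from -0.0369 to 0.0421 for the oxidation enzymes, and from -0.0276 to 0.153 for the former minus the latter. The labels do not say whether hearts with the same replicate number were handled together. The correlation of deviations was -0.11 for replicate 1 and 0.027 for replicate 2. These values cannot decide it, since the deviations of 2 sham hearts from their mean mirror each other. With the number as a block 0 genes were called, and the medians differed by 0.10.

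Of 436 member values under the alternatives 405 kept their sign and did not pass, 3 were exactly 0 (Hadha without antagonist replicate 2, and Hadhb with the block and without antagonist replicate 3) and 25 turned sign. In all 5 values newly passed, 2 of them with the sign turned (Decr1 and Etfb without sham replicate 2). The repeated quantile normalization gave 0.0261 for Etfa and -0.0279 for Etfdh, and the mean of both probes gave -0.0506 for Fabp3. The other turned values came with 1 array left out, 10 without sham replicate 1, and the ranges over the 5 arrays were -0.274 to 0.327 for Cpt1a, -0.124 to 0.204 for Cpt2, -0.0369 to 0.397 for Acadvl, -0.0298 to 0.0186 for Acadl, -0.236 to 0.224 for Acads, -0.0960 to 0.159 for Acaa2, -0.145 to 0.0563 for Decr1, -0.0430 to 0.0124 for Etfa, -0.0638 to 0.0421 for Etfb, -0.0991 to 0.195 for Fabp3, -0.191 to 0.0302 for Pdk2, -0.0717 to 0.214 for Acot1, -0.00156 to 0.0427 for Ppard, -0.0267 to 0.346 for Ppargc1a and -0.0852 to 0.262 for Esrra. The cause was not tested. A lone sham heart is assumed to vary like the antagonist hearts. Detection calls were not used here, so how far dim probes such as those of Hadhb, Pdk3 and Angptl4 stand above background is unknown.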
